A study of Mus musculus with 38 samples.

Results

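The testes compared here came from 8 F1 males and 3 B6 males at 7 days postpartum (dpp), and were taken as every 7 dpp array that the labels give these genotypes, 11 of the 38 arrays of the series. The F1 males were sons of B6-ChrXTMSM females and B6-Chr1MSM males. Their only X chromosome was that of B6-ChrXTMSM, B6 in its proximal part and MSM-derived in its distal part, and they carried 1 MSM-derived and 1 B6 copy of chromosome 1 on an otherwise B6 genome. B6 is the laboratory strain C57BL/6J, and MSM is an inbred strain of Japanese wild mice, Mus musculus molossinus. By their 7 dpp profiles the study classed F1 individuals a, b and e as restored and the others as non-restored. No label ties a male to either type, so all 8 males formed 1 group. Testes of 3 B6-ChrXTMSM males and 3 MSM males at 7 dpp, and of 3 F1, 3 B6, 3 B6-ChrXTMSM and 3 MSM males at 5 dpp, were used where named, as were testes of 3 B6-ChrXMSM males at 7 dpp, which carry a whole MSM-derived X chromosome on a B6 genome. Each array held RNA from whole testis of 1 male.

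Spermatogonia of the mouse testis start to differentiate in the first week after birth, when they lie among far more numerous Sertoli cells, the somatic cells that nurse them. Differentiating spermatogonia answer to retinoic acid, switch on Stra8 and synaptonemal complex genes, and enter meiotic prophase in the second week. The X chromosome carries an unusual number of genes for spermatogonia, among them paralogues of the RNA export factor Nxf1 and of the TFIID subunit Taf7. A male has a single X chromosome, so an MSM-derived X segment replaces the B6 allele outright, while on chromosome 1 of the F1 males the MSM and B6 alleles act side by side.

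Values are RMA signals, background-corrected, normalised and summarised per probe set on the log2 scale, so 1 unit is a doubling. Array medians ranged from 2.63 to 2.71 in F1 testes and were 2.69 in each B6 testis, and the number of arrays, 8 and 3, limits the precision. By a check on beta-actin, the F1 arrays fell into a pair of sets before any gene was compared. The log2 signal of the 3' probe set of beta-actin minus that of its 5' probe set, a check of RNA integrity and labelling, was 1.51, 1.63, 1.62 and 1.66 in F1 replicates 5, 6, 7 and 8. It was 1.09, 1.13, 1.29 and 0.98 in F1 replicates 1, 2, 3 and 4, and 1.16, 1.16 and 1.15 in the B6 males. Over all 8 F1 males the difference from B6 was 0.21 (exact permutation test, two-sided, p = 0.285, where 0.00606 is the smallest the design allows). The 3' minus 5' difference of Gapdh did not part these sets, at 0.09 in F1 replicate 3 and 0.07 in replicate 8. On the first principal component of the F1, B6-ChrXTMSM and B6 arrays (37.0% of the variance) the F1 males divided otherwise. F1 replicates 1, 2 and 5 lay at -15.2, -11.4 and -1.2, and replicates 3, 4, 6, 7 and 8 between 10.7 and 16.2. B6 lay between -27.4 and -22.6, and B6-ChrXTMSM between 7.1 and 15.9. The second component carried 29.8% of the variance. F1 replicates 5 to 8 lay on it between -29.0 and -12.9, replicates 1 to 4 between 2.3 and 9.1, and B6 between 0.2 and 2.1. Counts below are therefore also given without F1 replicates 5 to 8 and without F1 replicates 1 to 4, a choice made after seeing the data.

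The genotype of each male was read from polymorphic probe sets, whose probes cover bases that differ between MSM and B6, and which were chosen by a difference of at least 1 log2 unit between MSM and B6 at 5 dpp. On a scale with B6 at 0% and MSM at 100% of the 7 dpp means, the 8 F1 males lay at 78.7%, 94.3% and 99.7% (lowest, median and highest) on the distal X (8 probe sets). They lay at -18.9%, -11.6% and 10.6% on the proximal X (10 probe sets) and at 28.7%, 42.8% and 46.2% on chromosome 1 (39 probe sets). B6-ChrXTMSM males lay at 89.4% to 111% on the distal X and -10.6% to -5.90% on chromosome 1. Every F1 male thus matched its label, near MSM on the distal X, near B6 on the proximal X, and between both strains on chromosome 1 without overlapping the males of either. With the 2 and 6 probe sets that differed by at least 2 units the F1 medians were 128% on the distal X and 29.7% on chromosome 1. Of the Sertoli cell genes with a probe set, 20 of 22 passed the filter on low signal, whereas of 4 erythroid and 7 epididymal genes none did.

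**Figure D1:**
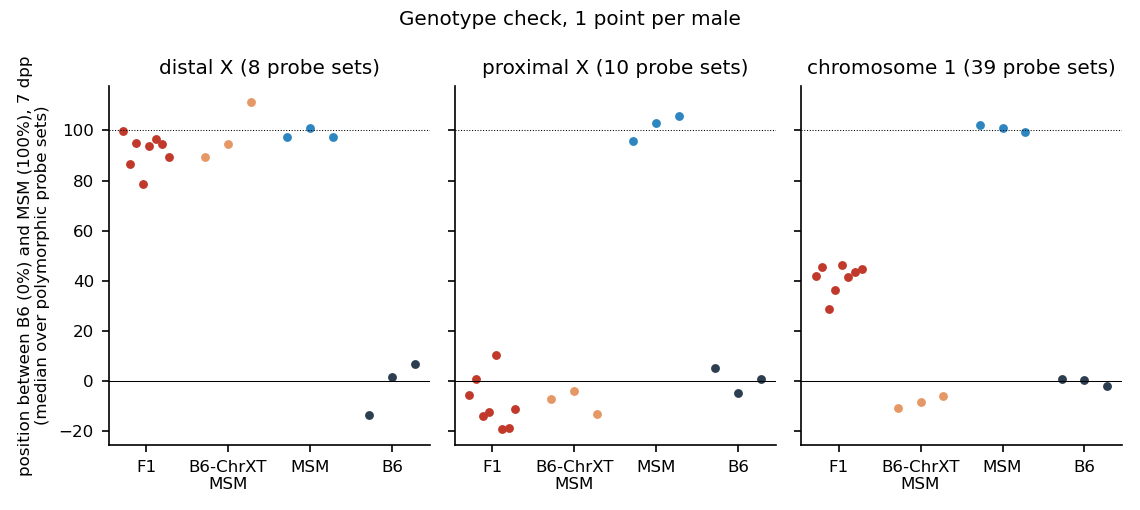
Position of each 7 dpp male between the B6 mean (0%) and the MSM mean (100%), as the median over polymorphic probe sets of the distal X, the proximal X and chromosome 1; 1 point is 1 male. The 8 F1 males lie at 78.7% to 99.7% on the distal X and at 28.7% to 46.2% on chromosome 1.

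To see where in the genome F1 testes departed from B6, probe sets were tested with limma and called at an adjusted p under 0.05 (Benjamini-Hochberg) together with a difference of 1.5-fold or more. Of 16656 probe sets with signal, 280 (1.68%) were called, 60 higher (0.36%) and 220 lower (1.32%) in F1. The MSM-derived distal X held 15 higher and 25 lower among 242 tested, or 16.5%. Chromosome 1 held 15 higher and 37 lower among 742 (7.01%). On the B6-derived proximal X 1 was higher and 2 were lower among 244 (1.23%), and on the other autosomes 29 were higher and 156 lower among 15428, with single autosomes between 0.442% on chromosome 8 and 2.18% on chromosome 12. The SD of the log2 fold changes was 0.61 on the distal X, 0.35 on chromosome 1, 0.27 on the proximal X and 0.24 on the other autosomes.

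The counts outside the MSM-derived segments followed the choice of arrays most closely. Without F1 replicates 5 to 8 the distal X had 29 calls, chromosome 1 had 26 and the B6-derived rest of the genome 23, of which 27, 23 and 17 were among the calls over all males. Without F1 replicates 1 to 4 they were 56, 84 and 886. Leaving out single males gave 75, 67 and 55 calls in all without B6 replicates 1, 2 and 3, and 537 and 461 without F1 replicates 1 and 2. It gave 164, 159 and 167 without F1 replicates 6, 7 and 8. On the distal X the count stayed between 28 and 48, except for 24 without B6 replicate 3. On chromosome 1 it stayed between 39 and 65 without any 1 F1 male, and was 25, 21 and 17 without B6 replicates 1, 2 and 3. On the rest of the genome it ranged from 14 without B6 replicate 3 to 424 without F1 replicate 1.

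**Figure D2:**
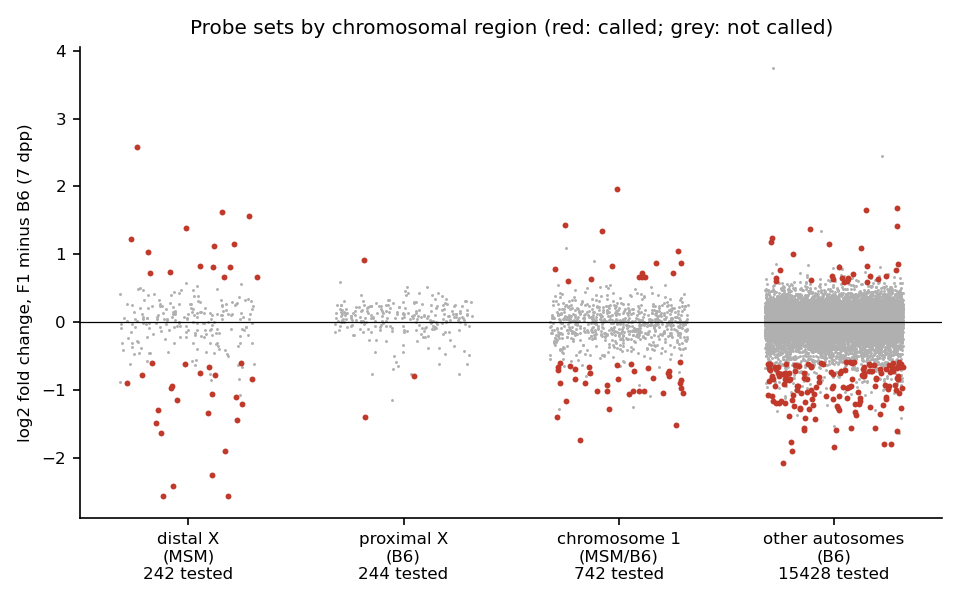
Log2 fold change of F1 minus B6 testes at 7 dpp for each tested probe set, by chromosomal region, with the origin of the region in the F1 males in brackets; red points were called and grey points were not. The distal X and chromosome 1 spread more widely (SD 0.61 and 0.35) than the proximal X and the other autosomes (0.27 and 0.24).

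The same directions were seen at 5 dpp in arrays that the 7 dpp comparison did not use. On the distal X, all 25 lower and all 15 higher probe sets lay on the same side of B6 in F1 testes at 5 dpp, and 13 and 5 of them were called there, beside 187 of the 242 tested that kept their side. On chromosome 1, all 37 lower and all 15 higher ones did so and 5 and 7 were called, beside 547 of 742 tested. F1 against B6 at 5 dpp had 0.144% of probe sets called higher and 0.378% called lower. MSM testes at 5 dpp lay on the same side of B6 for 24 of the 25 lower and 15 of the 15 higher probe sets of the distal X, and for 35 of 37 and 15 of 15 on chromosome 1, beside 160 of 242 and 478 of 742 tested. B6-ChrXTMSM testes at 5 dpp, with B6 copies of chromosome 1, lay on the same side of B6 for 30 of the 37 lower and 9 of the 15 higher probe sets of chromosome 1, beside 430 of 742 tested. Of the 158 probe sets lower in F1 on the rest of the genome, 157 were lower in F1 and 152 in B6-ChrXTMSM at 5 dpp, and 106 in MSM. Of the 30 higher ones, 24 were higher in F1, 15 in B6-ChrXTMSM and 11 in MSM. Over all 15672 tested there, 65.1% kept their side in F1, 60.6% in B6-ChrXTMSM and 51.2% in MSM. F1, B6-ChrXTMSM and MSM testes at 5 dpp shared their B6 controls, so these counts are not independent of each other.

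On the distal X, the largest falls were in Nhsl2, a paralogue of the Nance-Horan syndrome gene, and Gpm6b, a membrane glycoprotein of the proteolipid protein family. Nhsl2 signal was 1.69, 2.00 and 2.4 in F1 testes (lowest, median and highest of 8), against 4.57, 4.60 and 4.60 in B6 testes, a log2 fold change of -2.57 (SE 0.14, limma adjusted p = 8.8e-07). Gpm6b was at 2.79, 3.28 and 4.24 in F1, against 5.91, 5.83 and 6.09 in B6 (-2.56, SE 0.23, adjusted p = 6.67e-05). The groups did not overlap in either gene. Nhsl2, like Nxf3, Kctd12b, Rnf138rt1 and Chic1 below, passed the signal filter (a group mean above log2 of 10, or 3.32) through B6 only, so the sizes of these falls are less certain than their direction. A further probe set of Nhsl2 stood at 0.31, and was not called, while Gpm6b had -0.90, which was called, and -0.50 in its other probe sets. The size of the difference thus depended on the probe set in both genes.

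Nxf3, of the nuclear RNA export factor family, was at 1.96, 2.22 and 3.55 in F1, against 5.13, 4.15 and 5.10 in B6 (-2.42, SE 0.30, adjusted p = 0.000875). F1 replicate 5 was the highest of the F1 males, and still below every B6 male. In bulk RNA from whole testis, fewer cells of a type and less RNA per cell cannot be told apart. Kctd12b, which codes for a potassium channel tetramerisation domain protein, was at 0.99, 1.33 and 1.79 in F1, against 3.57, 3.67 and 3.72 in B6 (-2.25, SE 0.15, adjusted p = 2.78e-06), and its other probe set fell by 1.05. Rnf138rt1, a retrotransposed copy of the ubiquitin ligase gene Rnf138, changed by -1.89 (SE 0.20, adjusted p = 0.000251). Chic1, a gene beside the X inactivation centre, changed by -1.63 (SE 0.16, adjusted p = 0.000102). The other 2 probe sets of Chic1 stood at -0.45 and 0.10 and were not called. Named genes were picked among called probe sets without overlap between the groups, so their separation is a description. Over all 242 tested probe sets of the distal X, all F1 males lay below all B6 males in 18.2% and above them in 16.9%, beside 5.88% and 6.14% over the whole array.

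Rises on the distal X included Phex, the endopeptidase gene mutated in X-linked hypophosphataemia. Phex was at 3.96, 4.33 and 4.52 in F1, against 1.81, 1.84 and 1.44 in B6 (2.58, SE 0.13, adjusted p = 6.14e-07). The B6 values lay under the filter, and Phex, like Lpar4, Pdzd11, 3632454L22Rik and Chrdl1 below, passed it through F1 only. For 3632454L22Rik the F1 mean of 3.32 lay at the filter itself, and only 15 of the alternatives tested it. Lpar4, a lysophosphatidic acid receptor, was at 3.83, 4.43 and 4.47 in F1, against 2.88, 2.63 and 2.66 in B6 (1.62, SE 0.12, adjusted p = 1.54e-05), with F1 replicate 5 apart below the other males. Kdm5c, a demethylase of histone H3 lysine 4, was at 5.06, 5.32 and 5.44 in F1, against 3.83, 3.97 and 3.90 in B6 by the called probe set (1.39, SE 0.09, adjusted p = 2.78e-06). All F1 males were above all B6 males in these 3 genes. The other 5 Kdm5c probe sets stood between -0.55 and 0.15, and none was called, so the rise was that of 1 probe set. The other Lpar4 probe sets stood at -0.58 and 0.40 and were not called either. Pdzd11, a PDZ domain gene, changed by 1.56 (SE 0.12, adjusted p = 2.23e-05), the transcript 3632454L22Rik by 1.22 (SE 0.18, adjusted p = 0.00357), and Chrdl1, an antagonist of bone morphogenetic proteins, by 1.16 (SE 0.17, adjusted p = 0.00437). The second Chrdl1 probe set rose too, by 0.73 (adjusted p = 0.0148).

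Of the 25 lower probe sets of the distal X, 12 belonged to genes with another tested probe set, and in 6 of these another one fell as well. Of the 15 higher ones 11 had another, and in 6 another one rose. Probe sets listed by the study as polymorphic had been left out. Where the target is MSM-derived, a difference in hybridisation that escaped this list and a difference in RNA level cannot be told apart. All 6 falls and, except for 3632454L22Rik and Chrdl1, all rises named here stayed called under each of the alternatives in which they were tested, including without F1 replicates 5 to 8 and without 1 to 4. Chrdl1 was not called without B6 replicate 3 (1.09, adjusted p = 0.0504).

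**Figure D3:**
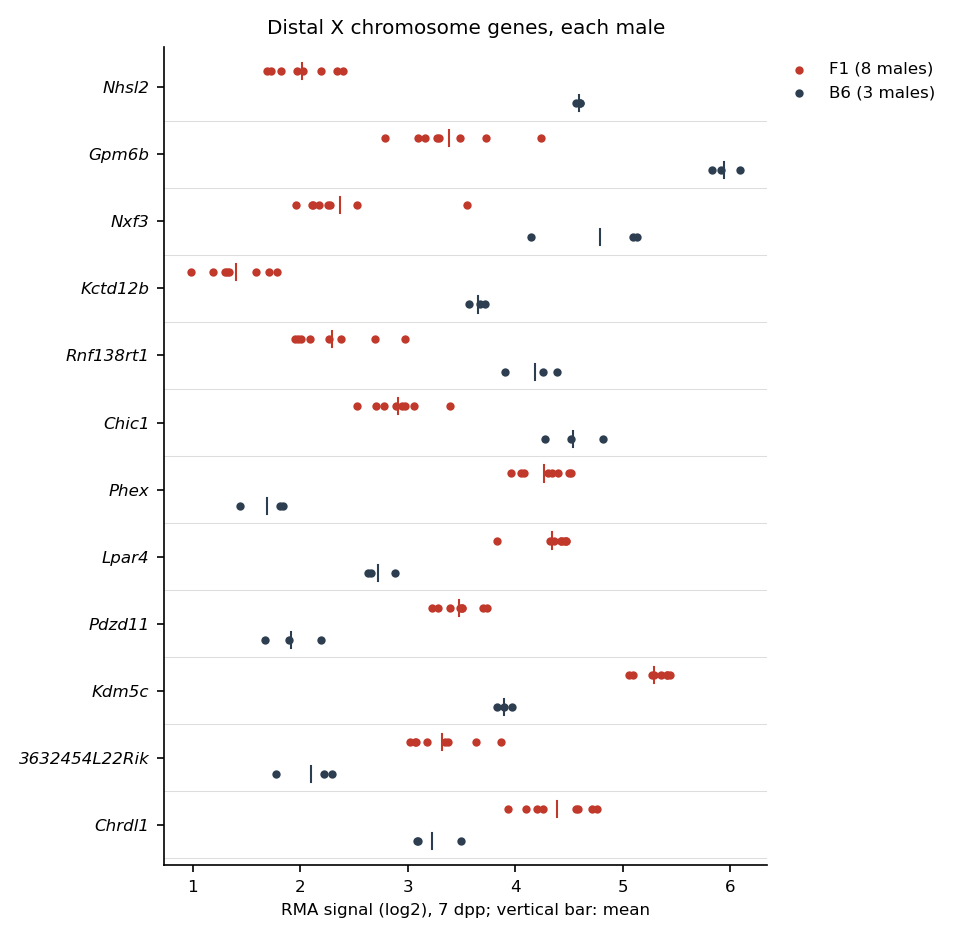
RMA signal (log2) of the 6 probe sets with the largest falls and the 6 with the largest rises on the distal X, in each F1 male (upper points of a row) and each B6 male (lower points); vertical bars are group means. F1 and B6 males do not overlap in any row.

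The study also selected 8 genes for RT-PCR with these arrays at hand, so their direction is not independent evidence. Of these, 6 had a tested probe set, all on the distal X, and 4 fell. Beside them, 10.3% of the tested probe sets of the distal X fell, and 1.32% of all probe sets. Pwwp3b, a PWWP domain gene, was at 7.27, 7.34 and 7.73 in F1, against 8.44, 8.33 and 8.72 in B6 (-1.10, SE 0.11, adjusted p = 0.000102). The F1 males lay close together and apart from B6. Trap1a, the gene of a tumour rejection antigen expressed in germ cells, changed by -0.94 (adjusted p = 0.034), and Rnf128, a ubiquitin ligase gene, by -0.97 (adjusted p = 0.0237). Both were not called without F1 replicates 5 to 8, at -1.06 (adjusted p = 0.0991) and -0.95 (adjusted p = 0.0922), nor without any 1 B6 male, and Trap1a was not called without F1 replicate 3, 6, 7 or 8 either. Nxf3 is described above. Taf7l, the germ cell paralogue of a TFIID subunit, was at 5.21, 6.09 and 6.64 in F1, against 6.41, 6.36 and 6.37 in B6 (-0.41, SE 0.26, adjusted p = 0.326). Nxf2, a relative of Nxf3, was at 6.02, 6.71 and 7.00 in F1, against 6.76, 6.75 and 6.90 in B6 (-0.22, SE 0.19, adjusted p = 0.468). For both genes, F1 replicates 3 and 4 were the lowest and replicate 5 the highest, and the F1 males lay on both sides of B6.

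On chromosome 1, where F1 males have an MSM and a B6 allele, Wdfy1, a WD repeat and FYVE domain gene, showed the largest rise. Its signal was 4.79, 5.25 and 5.66 in F1, against 3.37, 3.02 and 3.49 in B6 (1.96, SE 0.20, adjusted p = 0.000165), and MSM males averaged 5.83. All 3 Wdfy1 probe sets rose, by 0.88, 1.34 and 1.96. Bmpr2, a type II receptor for bone morphogenetic proteins, was at 5.60, 5.93 and 6.29 in F1, against 4.24, 4.79 and 4.53 in B6 (1.43, SE 0.15, adjusted p = 0.000196), and averaged 7.00 in MSM. Its other probe set stood at 0.02 (adjusted p = 0.879), so the rise was that of 1 probe set. For Wdfy1 and Bmpr2 the F1 males lay above every B6 male, with the F1 means between those of B6 and MSM. Mfsd4a, of the major facilitator transporters, rose by 1.06 (adjusted p = 0.000563). Mfsd4a (B6 mean 2.57) and the Wdfy1 probe set with the largest rise passed the signal filter through F1 only. The sizes of these rises are therefore less certain than their direction. Tmem37, a transmembrane protein gene, rose by 0.88 (adjusted p = 0.00755), and Pam, an enzyme that amidates peptide hormones, by 0.83 (adjusted p = 0.00602). Without B6 replicate 1 or 2 the rise of Pam was not called, and without B6 replicates 2 or 3 that of Tmem37 was not.

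The falls on chromosome 1 were less even among the F1 males. R3hdm1, an R3H domain gene, was at 3.80, 3.77, 2.80, 2.55, 2.00, 2.65, 2.18 and 2.12 in F1 replicates 1 to 8, against 4.22, 4.78 and 4.43 in B6 (-1.74, SE 0.36, adjusted p = 0.024). Suco, an endoplasmic reticulum protein gene, was at 4.46, 4.32, 3.58, 2.92, 2.78, 2.85, 2.82 and 2.58, against 4.63, 4.93 and 4.85 in B6 (-1.51, SE 0.37, adjusted p = 0.0426). F1 replicates 1 and 2 were nearest to B6 in both genes, and replicates 5 to 8 were among the farthest. The 3 other R3hdm1 probe sets stood between -0.23 and 0.19 and the 2 others of Suco at -0.01 and 0.10, and none of them was called. Abl2, a tyrosine kinase gene, changed by -1.16 (adjusted p = 0.0291) and Prrc2c, a gene of a proline-rich protein, by -1.28 (adjusted p = 0.0174). Of R3hdm1, Suco, Abl2 and Prrc2c none was called without F1 replicates 5 to 8, nor without B6 replicate 2 or 3. Dgkd, a diacylglycerol kinase, was at 2.10, 2.47 and 2.93 in F1, against 3.79, 3.94 and 3.89 in B6 (-1.39, SE 0.14, adjusted p = 0.000156). It stayed called under every alternative in which it was tested. Dgkd, R3hdm1 and Suco passed the signal filter through B6 only, so the sizes of these falls are less certain than their direction. Over the 37 lower probe sets of chromosome 1, the median difference from the B6 mean was between -1.1 and -0.56 in the F1 males, and -0.43, -0.47 and -0.42 in the B6-ChrXTMSM males. The MSM mean of Dgkd was 3.68, above all the F1 males, and its second probe set stood at -0.11.

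**Figure D4:**
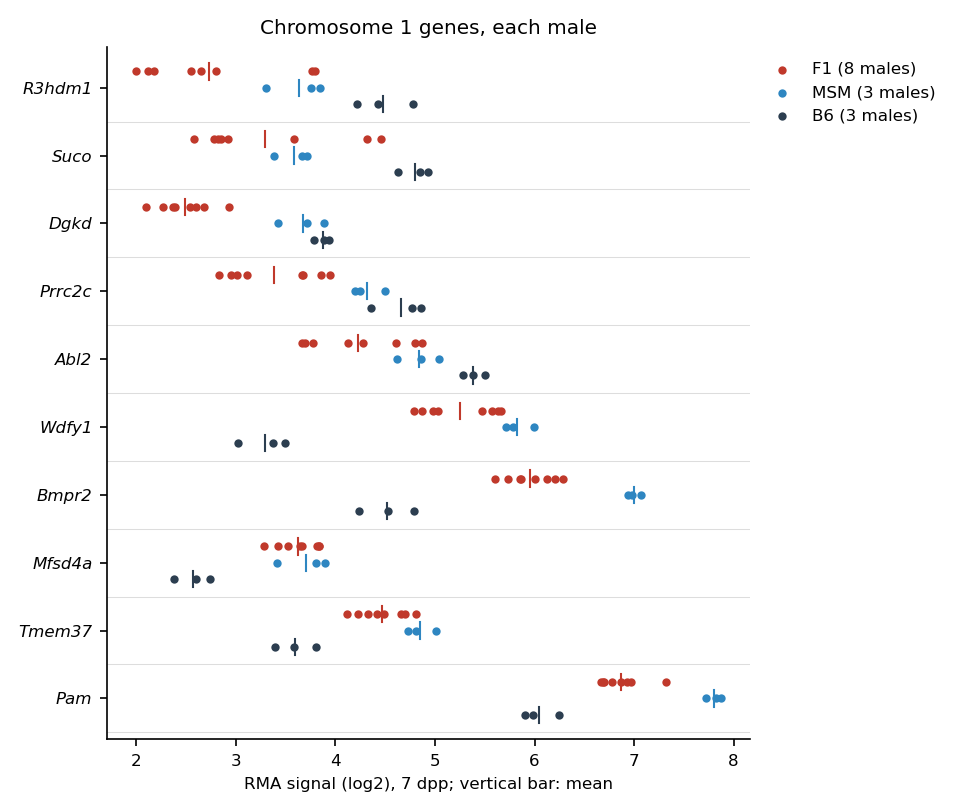
RMA signal (log2) of the 5 probe sets with the largest falls and the 5 with the largest rises on chromosome 1, in each F1 male (upper points of a row), each MSM male (middle points) and each B6 male (lower points); vertical bars are group means. Wdfy1 and Bmpr2 have F1 means between those of MSM and B6.

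Outside the MSM-derived segments, 158 probe sets fell and 30 rose, an excess of falls that depended on the setting. There were 12 higher and 11 lower without F1 replicates 5 to 8, 6 higher and 8 lower without B6 replicate 3, 18 higher and 6 lower with the replicate number as a block, and 253 higher and 298 lower with no fold limit. The largest falls were in Golm2, a Golgi membrane protein gene, Ibtk, an inhibitor of Bruton's tyrosine kinase, Baz1b, a bromodomain chromatin remodelling factor, Luc7l2, a splicing factor of the U1 snRNP, and Rnf17, a tudor domain gene needed for spermatids. Golm2 was at 5.16, 5.15, 3.96, 3.43, 3.24, 3.4, 2.88 and 2.52 in F1 replicates 1 to 8, against 5.48, 5.96 and 5.93 in B6 (-2.08, SE 0.50, adjusted p = 0.0391). Ibtk was at 3.52, 3.17, 2.05, 2.15, 1.66, 1.95, 1.83 and 2.20, against 4.16, 4.20 and 4.31 in B6 (-1.91, SE 0.34, adjusted p = 0.0127). F1 replicates 1 and 2 were again nearest to B6. Ibtk and Luc7l2 passed the signal filter through B6 only, so the sizes of their falls are uncertain. Without F1 replicates 5 to 8 the changes were -1.37 (adjusted p = 0.137) for Golm2 and -1.50 (adjusted p = 0.0827) for Ibtk, and neither was called. Baz1b, Luc7l2 and Rnf17 were not called without F1 replicates 5 to 8 either. Golm2, Ibtk, Baz1b and Luc7l2 were not called without any 1 B6 male, nor Rnf17 without B6 replicate 2 or 3, and Golm2 was also lost without F1 replicate 3, 4, 6, 7 or 8 and Baz1b without F1 replicate 6 or 7.

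These falls were mostly those of 1 probe set of a gene. Beside the called probe set the other of Golm2 stood at 0.33, that of Ibtk at 0.00, the 2 others of Baz1b at -0.08 each, and the 7 others of Luc7l2 between -0.15 and 0.22, none of them called. Of the 158 lower probe sets, 146 belonged to genes with another tested probe set. In 21 of them another one fell too, in 115 all others changed by less than 1.5-fold, and in 1 another one rose. Over the 158, the median difference from the B6 mean was -0.89, -0.90, -1.10 and -1.17 in F1 replicates 5 to 8. It was -0.43, -0.51, -1.13 and -1 in F1 replicates 1 to 4, and -0.74, -0.75 and -0.71 in the B6-ChrXTMSM males. The beta-actin 3' minus 5' signal was highest in F1 replicates 5 to 8, and its part in these falls was not tested. Replicates 3 and 4, with beta-actin values of 1.29 and 0.98, had medians in the same range.

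Rises outside the MSM-derived segments were fewer. A330076H08Rik, an unnamed transcript of chromosome 7, was at 3.46, 4.03 and 4.32 in F1, against 2.25, 2.12 and 2.54 in B6 (1.69, SE 0.17, adjusted p = 0.000125). It passed the signal filter through F1 only, and B6-ChrXTMSM males were at 4.28, 3.97 and 4.08, within the F1 range. Rai14, an actin-associated ankyrin repeat protein gene on chromosome 15, was at 5.36, 5.73 and 5.77 in F1, against 4.03, 3.94 and 4.09 in B6 (1.66, SE 0.09, adjusted p = 6.14e-07). C1qtnf3, a secreted C1q/TNF-related protein gene also on chromosome 15, was at 7.41, 7.95 and 8.35 in F1, against 6.73, 6.71 and 6.52 in B6 (1.24, SE 0.21, adjusted p = 0.0113). Every F1 male was above every B6 male in these 3 genes, which the choice of genes required. B6-ChrXTMSM males were at 4.23, 4.04 and 4.20 for Rai14, close to B6, and MSM males averaged 1.62. Another Rai14 probe set fell by 0.84 (adjusted p = 0.0234) and the remaining ones stood at 0.16 and -0.16. A330076H08Rik and Rai14 stayed called under every alternative in which they were tested, whereas C1qtnf3 was not called without 1 of the 3 B6 males, at any of the 3 choices. Ptgds, which codes for prostaglandin D synthase, was higher by 1.18 (adjusted p = 0.0129) and was not called without F1 replicates 5 to 8 or without any 1 B6 male.

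For the lists, the brightest probe set on average stood for a gene (its representative), and its other probe sets may differ. In the Sertoli cell list the keratins, which mark immature Sertoli cells, were higher. Of 20 tested genes 2 rose, beside 0.36% of all probe sets, and the list median was 0.12 against 0.01 over all probe sets. Both, Krt8 and Krt18, passed the signal filter through F1 only (B6 means of 3.12 and 2.29), so their count is a description. Krt8 was at 3.68, 4.53 and 5.18 in F1, against 3.01, 3.57 and 2.79 in B6 (1.41, SE 0.27, adjusted p = 0.0188), and Krt18 at 2.60, 3.56 and 4.23, against 2.04, 2.32 and 2.50 in B6 (1.15, SE 0.26, adjusted p = 0.034). F1 replicate 5 had the lowest Krt8, just above the highest B6 male. Krt8 was not called without B6 replicate 1 or 3. The other 18 genes, with values between -0.24 for Amhr2, the receptor of anti-Mullerian hormone, and 0.30 for Hsd17b1, a steroid dehydrogenase, did not pass the test by these probe sets. Kitl, the ligand of the KIT receptor of spermatogonia, stood at 0.13 by its representative, while 2 of its other probe sets fell, by 1.14 (adjusted p = 0.0456) and 1.17 (adjusted p = 0.0481), and the third stood at -0.41. Krt18 was not called without F1 replicates 5 to 8 (1.36, adjusted p = 0.053), and did not pass the filter without F1 replicates 1 to 4.

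Germ cell lists were lower in the median but few of their genes passed the test. Of 14 meiotic prophase genes none was called, 13 lay below B6, and the median was -0.45. At an unadjusted p under 0.05, 4323 of all 16656 probe sets passed. Of 17 germ cell and piRNA pathway genes none was called by its representative, 16 lay below B6, and the median was -0.25. Rnf17 belongs to this list, at -0.47 by its representative, and its called probe set is described above. Of 12 genes of differentiating spermatogonia 2 fell, with a median of -0.50, and of 8 X-linked genes of spermatogonia 2 fell, with a median of -0.58, beside 1.32% of all probe sets. Rhox13 is 1 of the 2 in both lists. The other in the differentiating list is Lmo1, which like Nxf3 passed the signal filter through B6 only, so these counts are a description. The other in the X-linked list is Nxf3, at -2.42 its lowest value. The study describes Nxf3 as expressed in Sertoli cells, so this list is not one of spermatogonia alone. Lower calls made up 10.3% of probe sets on the distal X and 0.82% on the proximal X. Genes of undifferentiated spermatogonia had a median of 0.10, with none of 12 called by its representative, while another probe set of Zbtb16, the transcription factor PLZF, fell by 0.96 (adjusted p = 0.0308). Ret, the receptor for the niche factor GDNF, was at 0.52 (adjusted p = 0.0482) and Etv5, a transcription factor downstream of GDNF, at 0.46 (adjusted p = 0.0208), both under the 1.5-fold limit. In the same list 4 genes lay below B6, the lowest at -0.69, and Lin28a was at -0.44 (adjusted p = 0.311). Without F1 replicates 1 to 4, Sox3 was called lower and Ret higher. Medians of the 4 lists below B6 kept their sign without F1 replicates 5 to 8 (-0.66, -0.39, -0.50 and -0.75) and without F1 replicates 1 to 4 (-0.27, -0.23, -0.44 and -0.41), and 3 meiotic genes, Stra8, Syce3 and Meioc, were called in the second case, in which 6.15% of all probe sets were.

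Rhox13, a homeobox gene of the proximal X expressed in spermatogonia, was called in these lists beside Nxf3 and Lmo1. It was at 5.54, 4.97, 4.13, 4.08, 5.73, 4.54, 4.45 and 4.72 in F1 replicates 1 to 8, against 6.07, 6.11 and 6.31 in B6 (-1.40, SE 0.31, adjusted p = 0.0308). Lmo1, a LIM domain transcriptional regulator, was at 3.4, 3.11, 2.78, 2.14, 3.57, 2.29, 2.57 and 2.67, against 3.98, 3.83 and 3.86 in B6 (-1.07, SE 0.26, adjusted p = 0.0403). In both genes F1 replicates 5 and 1 came nearest to B6 and replicate 4 was lowest. Neither was called without F1 replicates 5 to 8 (-1.48, adjusted p = 0.0773, and -1.03, adjusted p = 0.0959). Meioc, a partner of the meiotic RNA regulator YTHDC2, was at 2.80, 2.48, 0.98, 0.99, 3.75, 2.12, 1.73 and 2.29 in F1, against 3.52, 4.03 and 3.81 in B6 (-1.64, SE 0.47, adjusted p = 0.0626). Stra8, the retinoic acid target that marks meiotic entry, was at 7.33, 6.94, 6.15, 5.64, 6.83, 6.42, 6.38 and 6.66, against 7.18, 7.49 and 7.31 in B6 (-0.78, SE 0.27, adjusted p = 0.0949). Replicates 3 and 4 were the 2 lowest for both. Lmo1 and Meioc passed the signal filter through B6 only, so the sizes of their differences from B6 are uncertain.

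The F1 males differed from each other more than the males of any other 7 dpp group. Over the tested probe sets the median SD was 0.151 in F1, against 0.073 in B6, and the median difference between any 2 males, which does not depend on group size, was 0.176 in F1 and 0.092 in B6. In B6-ChrXTMSM, B6-ChrXMSM and MSM it was 0.094, 0.103 and 0.108. Among F1 replicates 1 to 4 alone it was 0.158 and among replicates 5 to 8 alone 0.127. By list, the median SD was 0.45 in F1 and 0.13 in B6 for meiotic prophase, 0.52 and 0.08 for X-linked genes of spermatogonia, and 0.18 and 0.10 for Sertoli cell genes. No test of the spread was made.

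Ordered from high to low by the mean of each germ cell list, the F1 males came as replicates 5, 1, 2, 8, 6, 7, 3 and 4 in all 5 lists, with 6 and 7 tied in 1 of them, and some genes stand in more than 1 list. The mean signal of the 14 meiotic prophase genes was 5.74, 5.52, 4.87, 4.63, 6.03, 5.29, 5.28 and 5.41 in F1 replicates 1 to 8, against 5.77, 5.97 and 5.94 in B6, and 4.02, 4.80 and 4.28 in B6-ChrXTMSM. For the 8 X-linked genes of spermatogonia it was 5.33, 5.11, 4.41, 4.22, 5.71, 4.83, 4.81 and 5.01 in F1, against 5.79, 5.73 and 5.83 in B6, and 3.53, 4.26 and 3.70 in B6-ChrXTMSM. The Sertoli cell mean was 7.46, 7.46, 7.69, 7.70, 7.37, 7.53, 7.45 and 7.45 in F1, against 7.32, 7.29 and 7.34 in B6. F1 replicates 5 and 1 were highest in the germ cell lists, and replicates 3 and 4 were lowest in them and highest in the Sertoli cell list. The beta-actin signal was 1.51 and 1.09 in replicates 5 and 1, and 1.29 and 0.98 in replicates 3 and 4, and its part in the order was not tested.

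**Figure D5:**
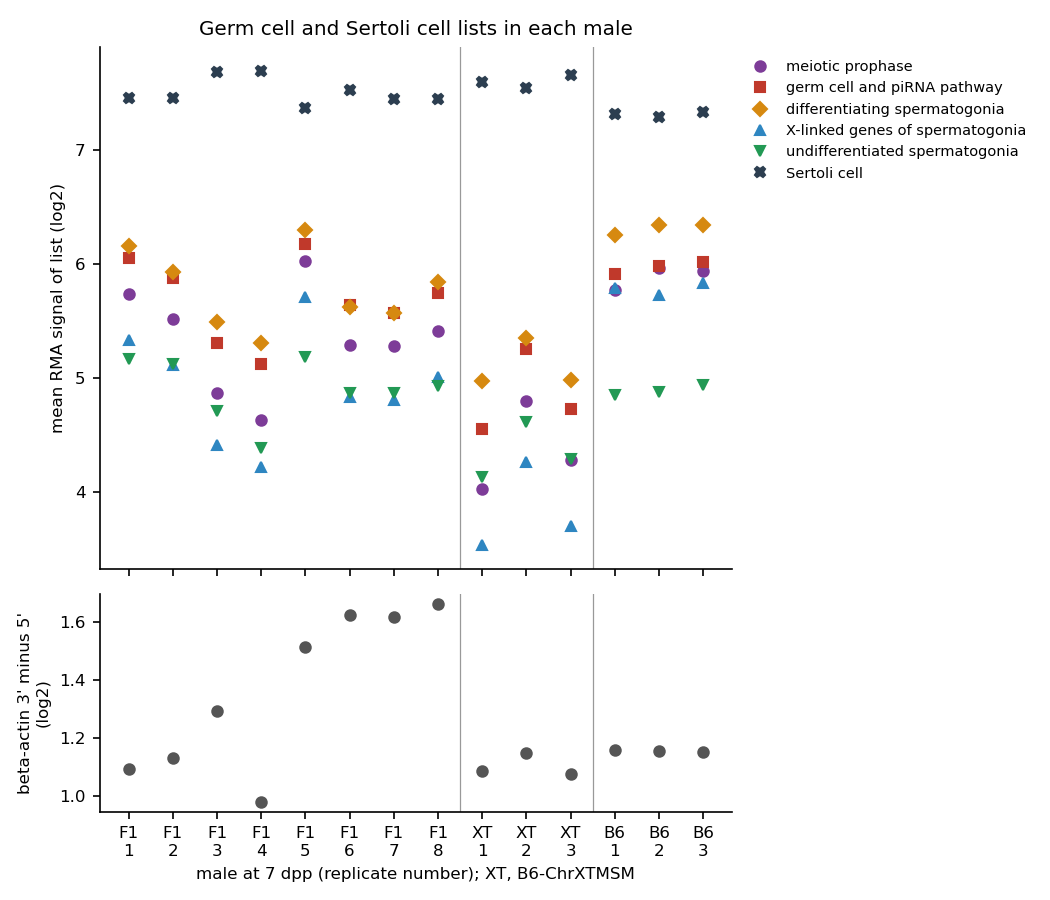
Upper panel, mean RMA signal (log2) of 5 germ cell lists and the Sertoli cell list in each 7 dpp male; lower panel, log2 signal of the 3' minus the 5' beta-actin probe set in the same males. F1 replicates 3 and 4 have the lowest germ cell means of the F1 males (4.87 and 4.63 for meiotic prophase), and F1 replicates 5 to 8 the highest beta-actin difference (1.51 to 1.66).

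The promoters of 4 members of these lists are shown as a description, and any part of theirs in the order of the males was not tested. They are from RefSeq on GRCm38.p6, 250 bases before to 50 after the annotated start and in the direction of transcription. The letters are those of the reference genome. Taf7l and Nxf2 lie on the distal X, where F1 males carry only MSM-derived alleles, whose sequence was not examined. Capitals mark CACGTG, the E-box bound by factors of the MYC, MAX and MGA kind, and TCGCGA. Both read alike on either strand.
Taf7l, chrX:134476441-134476740, minus strand: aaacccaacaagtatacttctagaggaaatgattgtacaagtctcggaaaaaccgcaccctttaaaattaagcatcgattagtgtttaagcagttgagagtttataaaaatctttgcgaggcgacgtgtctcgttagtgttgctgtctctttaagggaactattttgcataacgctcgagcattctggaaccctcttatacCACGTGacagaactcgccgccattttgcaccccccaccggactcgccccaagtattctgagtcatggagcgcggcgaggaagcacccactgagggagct
Nxf2, chrX:134964705-134965004, minus strand: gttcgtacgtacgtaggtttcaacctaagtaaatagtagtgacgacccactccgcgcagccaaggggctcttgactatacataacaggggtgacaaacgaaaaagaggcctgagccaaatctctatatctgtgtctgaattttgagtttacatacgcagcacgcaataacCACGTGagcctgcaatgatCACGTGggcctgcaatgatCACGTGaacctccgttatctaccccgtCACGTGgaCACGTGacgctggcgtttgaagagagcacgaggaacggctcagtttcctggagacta
Meioc, chr11:102665335-102665634, plus strand: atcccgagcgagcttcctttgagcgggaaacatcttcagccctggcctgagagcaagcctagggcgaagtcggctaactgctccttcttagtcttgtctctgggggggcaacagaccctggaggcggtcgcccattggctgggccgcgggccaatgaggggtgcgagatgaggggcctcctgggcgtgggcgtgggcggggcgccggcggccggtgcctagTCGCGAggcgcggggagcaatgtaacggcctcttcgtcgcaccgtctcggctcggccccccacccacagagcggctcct
Stra8, chr6:34920698-34920997, plus strand: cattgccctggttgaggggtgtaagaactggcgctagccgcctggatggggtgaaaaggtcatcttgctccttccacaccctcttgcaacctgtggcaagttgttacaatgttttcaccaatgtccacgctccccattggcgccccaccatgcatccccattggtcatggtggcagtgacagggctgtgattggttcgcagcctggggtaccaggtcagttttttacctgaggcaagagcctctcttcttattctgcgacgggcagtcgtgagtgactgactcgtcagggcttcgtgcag
The Taf7l window has 1 CACGTG, 49 bases before the start, the Nxf2 window has 5, and the Meioc window has 1 TCGCGA, 29 bases before the start. The Stra8 window has neither. CACGTG stood in 11 of 25 promoters of the germ cell and piRNA pathway list, 7 of 24 of meiotic prophase, 2 of 9 of the X-linked list, 1 of 14 of differentiating and 0 of 18 of undifferentiated spermatogonia, 2 of 16 of Sertoli cells, and 7.15% of all 32851. TCGCGA stood in 5 of 24 meiotic prophase promoters and 2 of 25 of the germ cell and piRNA pathway list, beside 2.5% of all. The 6 motifs searched, on both strands and chosen after the promoters had been seen, were these 2 and GGCGGGAA (7 of 24 meiotic prophase promoters, 2.19% of all), TATAAA (1 of 24, 13.6%), CCAAT (10 of 24, 37.4%) and ATTTGCAT (0 of 24, 1.74%). Some genes have several annotated starts, the second Nxf2 window holds neither of the marked motifs, and a match is a description of these letters. The shares cover list genes whether or not they were tested here. Both marked motifs contain CG, and the shares were not adjusted for CG content. The printed windows hold 17, 20, 28 and 10 CG, beside a median of 7 over all promoters.

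The genes with the largest SD among F1 males were of different kinds. Car3, a carbonic anhydrase abundant in fat, was at 8.29, 6.54, 7.73, 5.68, 0.69, 4.86, 4.80 and 2.05 in F1 replicates 1 to 8, against 0.62, 2.18 and 1.22 in B6 (3.74, SE 1.33, adjusted p = 0.106). Fabp4, the fatty acid binding protein of adipocytes, was at 6.46, 5.00, 6.27, 4.05, 1.43, 4.17, 3.92 and 1.47, against 1.69, 1.89 and 1.39 in B6 (2.44, SE 0.95, adjusted p = 0.132). Both were above every B6 male in 6 of the 8 F1 males, and within the B6 range in replicates 5 and 8. Both were called higher without F1 replicates 5 to 8. At 5 dpp the order was the reverse, with Car3 means of 4.23 in F1 and 8.32 in B6, and Fabp4 means of 4.08 and 6.75. Neither was called there (limma adjusted p = 0.329 and 0.363). Adipose genes with a probe set numbered 10, of which 3 passed the filter, and the mean of the 3 ranged from 2.36 to 6.65 in F1 against 3.69 to 5.57 in B6-ChrXTMSM, 4.45 to 6.71 in MSM and 2.39 to 3.12 in B6. The third, Dgat2, was at -0.55 (adjusted p = 0.124). F1 replicates 3 and 4, with the lowest germ cell means, had adipose means of 6.13 and 4.61, replicates 1 and 5, with the highest, had 6.65 and 2.36, and the part of adipose RNA in any result was not tested.

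Other variable genes divided F1 replicates 5 to 8 from 1 to 4. Bcas2, a spliceosome subunit gene, was at 5.00, 4.69, 5.44 and 5.19 in replicates 5 to 8, and at 3.18, 3.15, 2.63 and 3.86 in replicates 1 to 4, against 3.49, 3.46 and 3.47 in B6. Rbm39, a splicing factor gene, was at 3.63, 3.81, 3.44 and 3.56 in replicates 5 to 8, and at 5.54, 5.55, 5.13 and 5.91 in replicates 1 to 4, against 5.42, 5.37 and 5.18 in B6. Acp1, a low molecular weight phosphatase gene, was at 6.03, 5.96, 6.25 and 5.96, and at 4.22, 4.23, 4.17 and 5.21, against 4.50, 4.34 and 4.38 in B6. By these probe sets, replicates 1 to 4 lay around B6 and replicates 5 to 8 did not overlap them. The same was so of the beta-actin signal, whose part was not tested. Over all F1 males the Bcas2 and Acp1 probe sets shown stood at 0.67 and 0.84 from B6 and were not called. Their other probe sets stood at 0.03 for Bcas2 and between 0.04 and 0.05 for Acp1. Malat1, a nuclear long non-coding RNA, was at 8.33, 8.84, 8.32 and 7.59 in replicates 5 to 8 and at 10.27, 10.28, 9.68 and 9.37 in replicates 1 to 4, against 10.39, 10.65 and 10.48 in B6 (-1.42, adjusted p = 0.0999). Among the other Malat1 probe sets 2 fell, by 1.26 and 1.41 (adjusted p = 0.00533 and 0.0101). Zfp800, a zinc finger gene, ranged from 2.31 to 5.16 and Cbln1, a secreted cerebellin, from 3.23 to 6.14. Zfp800 was at -1.37 from B6 (adjusted p = 0.122) and this Cbln1 probe set at 0.71 (adjusted p = 0.403), and neither was called.

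Set against B6-ChrXTMSM, the strain with the same X chromosome but B6 copies of chromosome 1, F1 testes had 54 calls among 16589 probe sets (0.326%), 25 higher and 29 lower. On chromosome 1, 12 were higher and 21 lower among 741, and on the other autosomes 13 were higher and 8 lower among 15379. Of 229 probe sets of the distal X none was called by limma, although 64 had an unadjusted p under 0.05, and with estimated array weights 15 were higher and 7 lower. The F1 arrays served in both comparisons, so the values are given side by side. Bmpr2, by the probe set that rose, was 1.85 above B6-ChrXTMSM (SE 0.14, adjusted p = 2.72e-05) and 1.43 above B6. Rai14 was 1.52 above B6-ChrXTMSM (adjusted p = 2.44e-06) and 1.66 above B6. Cracdl, a chromosome 1 gene, was 1.55 above B6-ChrXTMSM (adjusted p = 0.0014) and 0.73 above B6 (adjusted p = 0.0346). Stra8 was 1.47 above B6-ChrXTMSM (adjusted p = 0.0494), at 4.58, 5.69 and 4.95 in its males, and -0.78 from B6, which was not called.

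Genes below B6-ChrXTMSM included Cbln1 (by its other probe set, -1.97, adjusted p = 0.0442) and Pnmt, the enzyme that makes adrenaline (-1.45, adjusted p = 0.0216). Pnmt was at 2.17, 2.91 and 3.51 in F1 (lowest, median and highest), against 4.21, 4.02 and 4.55 in B6-ChrXTMSM and this probe set did not pass the signal filter in the comparison with B6. Miox, an inositol oxygenase gene, was at -1.08 (adjusted p = 0.0452) and Crispld1, a secreted cysteine-rich protein gene on chromosome 1, at -1.13 (adjusted p = 0.0145). Stk17b, a kinase gene of chromosome 1, was at -1.02 (adjusted p = 0.000799) from B6-ChrXTMSM and at -0.80 (adjusted p = 0.00217) from B6, with an MSM mean of 1.53. The total of 54 became 173 and 317 without F1 replicates 3 and 4, with 119 and 244 of them higher, and 20, 32 and 17 without B6-ChrXTMSM replicates 1, 2 and 3.

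The difference between F1 and B6 was also compared between ages, as the contrast of F1 minus B6 at 7 dpp with that at 5 dpp over 17 arrays. Of 17088 probe sets 2 were called (0.0117%), both higher, while 1121 had an unadjusted p under 0.05. A330076H08Rik was at 1.69 from B6 at 7 dpp and -0.23 at 5 dpp, where F1 averaged 4.16 and B6 4.40 (age difference 1.92, SE 0.26, adjusted p = 0.0164). Nfe2l2, the transcription factor NRF2 of the oxidative stress response, was at 0.29 at 7 dpp and -0.78 at 5 dpp by 1 probe set (age difference 1.07, SE 0.16, adjusted p = 0.028), and its second probe set stood at -0.09 at 7 dpp. The number of calls was 0 without B6 replicate 1 or 2 at 7 dpp, without F1 replicate 1 or 3 at 5 dpp or without B6 replicate 1 at 5 dpp, 1 without F1 replicate 6 or B6 replicate 3 at 7 dpp and without F1 or B6 replicate 2 at 5 dpp, and 9 without B6 replicate 3 at 5 dpp. At 5 dpp alone, F1 against B6 gave 87 calls (0.522% of 16653), 27 of them on the distal X and 17 on chromosome 1.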

How the data were processed

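Testes of single males were profiled on Affymetrix Mouse Genome 430 2.0 arrays. The authors extracted total RNA from whole testis, labelled 100 ng with a 3' IVT kit, and computed log2 signals with RMA in GeneSpring GX (version not given in the sources used here) before the values were deposited, so scanner intensities were not used. RMA forces similar distributions on all arrays, and 3' labelling makes signals depend on RNA integrity. The smallest SD of the difference between any 2 arrays was 0.181, so none was a copy. Of 45101 probe sets, 34958 had 1 gene in the platform annotation and those with several or none were left out. The 1366 polymorphic probe sets listed by the study were used for the genotype check and kept in 1 alternative. The proximal and distal X were split by gene order at the boundary that the study gives.

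A probe set was kept where the mean of either group exceeded log2 of 10. The linear model and moderated test of limma (3.58.1, under R 4.3.3) were run, adjusted over all probe sets tested (Benjamini-Hochberg, 0.05, at least 1.5-fold), without covariates; the fit was tested on simulated data. Named genes are the called probe sets with the largest changes whose groups do not overlap (6 and 6 on the distal X, 5 and 5 on chromosome 1, 5 and 5 elsewhere, 1 per gene), those with the largest SD among F1 males (10), the largest of the other comparisons (5 and 5), and list members, each list gene by its probe set of highest mean. Other genes were picked after their values were seen. The members and lists were chosen with earlier results of these data known. Alternatives covered the groups in the fit, the filter, scaling, variance model, array weights, polymorphic probe sets, the fold limit, each male left out, and the replicate number as a block. The labels call the males biological replicates.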

Additional observations from a re-analysis of the deposited data

Results flagged for a closer look

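Of 76 sets of F1 values checked for 1 male apart from the other 7 (Dixon's criterion at 95%), 5 were past it, where chance would flag about 1 in 20. F1 replicate 5 stood apart in 3 of them. It was lowest for Lpar4, at 3.83, and for Rai14, at 5.36, and highest for Nxf3, at 3.55, and each gene was called with and without it. F1 replicate 4 was highest for Pam, at 7.32, and F1 replicate 2 was lowest for 1 of the Wdfy1 probe sets, at 5.09. In 2 genes the difference between F1 and B6 changed with age by the interaction term: A330076H08Rik by 1.92 (adjusted p = 0.0164) and Nfe2l2 by 1.07 (adjusted p = 0.028).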

How the results depend on the processing

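Of the 35 named probe sets called in F1 against B6, all kept their sign under every alternative that tested them. All 35 remained called with all 7 dpp groups in the fit, with no filter, with array medians subtracted, with a variance trend, with array weights and with polymorphic probe sets kept, and all 24 tested remained called under the stricter filter (log2 of 20). Of the 35, 15 were lost with the replicate number as a block, 13, 15 and 16 without B6 replicates 1, 2 and 3, 12 without F1 replicates 5 to 8, and 0 to 5 without any 1 F1 male. The total of 280 calls became 501 with all groups in the fit, 176 under the stricter filter, 663 with array weights and 723 with no fold limit, and 78 and 1026 without F1 replicates 5 to 8 and 1 to 4. On the distal X, 40 became 26 under the stricter filter and 64 with no fold limit. On chromosome 1, 52 became 34 and 108 under these, and 26 and 84 without F1 replicates 5 to 8 and 1 to 4. On the rest of the genome, 188 became 387 with all groups, 116 under the stricter filter, 537 with array weights, 551 with no fold limit, and 23 and 886 without F1 replicates 5 to 8 and 1 to 4. Leaving out 1 male gave 55 to 537, 24 to 48, 17 to 65 and 14 to 424 for these 4 counts. Besides the males named above, 118 calls on the rest of the genome were left without F1 replicate 3, 89, 87 and 93 without replicates 6, 7 and 8, 351 without replicate 2, and 20 and 18 without B6 replicates 1 and 2. Against B6-ChrXTMSM, 54 became 305 with all groups (205 higher), 33 under the stricter filter, 438 with array weights (252 higher), 102 with polymorphic probe sets kept, 107 with no fold limit, 32 and 864 without F1 replicates 5 to 8 and 1 to 4, and 17 to 317 without 1 male. The age difference gave 1 call with all groups, under the stricter filter or with a variance trend, 250 with array weights, 636 without F1 replicates 1 to 4, and 0 to 9 without 1 male. With the larger minimum difference the genotype check gave F1 medians of 128% for the distal X and 29.7% for chromosome 1. Fewer probe sets were tested under the stricter filter and fewer males when some were left out; the cause was not tested elsewhere.

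With the replicate number as a block, which numbers 1 to 3 of both groups share, calls numbered 67 in all, 24 on the distal X, 19 on chromosome 1 and 24 on the rest of the genome, and 49 against B6-ChrXTMSM. Deviations of same-numbered F1 and B6 males correlated at -0.18, 0.12 and -0.06, and those of differently numbered males at -0.10 to 0.17. With 3 males on each side these values cannot decide whether a number stands for shared handling. The labels state no pairing.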

Other observations

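Lists of the other cell types of the testis held no call in F1 against B6 at 7 dpp by the probe set of highest mean signal of each gene. The 8 Leydig cell and steroid synthesis genes had a median of 0.24 and a mean signal of 6.64 to 7.61 in F1 testes, against 6.93 to 7.14 in B6 testes. The 9 peritubular myoid and smooth muscle genes had a median of -0.14, with means of 6.69, 6.54, 6.52 and 6.59 in F1 replicates 5 to 8 and 6.96, 7.05, 6.97 and 6.77 in F1 replicates 1 to 4, against 7.04, 6.91 and 6.84 in B6. The medians were 0.09 for 8 endothelial genes, 0.10 for 8 macrophage genes, -0.11 for 15 genes of proliferation (another probe set of Mcm3, a replication licensing gene, fell by 1.05, adjusted p = 0.0116), -0.11 for 14 of cholesterol synthesis, -0.01 for 12 of the retinoic acid pathway and -0.01 for 7 immediate early genes. The single skeletal muscle gene tested stood at 0.36.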
